A study of Oryza sativa with 6 samples.

Results

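Kinesins and tubulins are the motors and the building blocks of microtubules, and their transcripts were followed here in rice stem bases, the tissue in which crown roots form. Members were taken by name: genes whose symbol or synonym in the rice annotation, without the Os prefix, starts with KIN and a family number or letter, or names an alpha, beta or gamma tubulin. The annotation holds 49 such genes. Of these, 44 have at least 1 probe set on the array, 33 kinesins and 11 tubulins, out of 17905 genes with a probe set in all. *KIN12F*, *KIN14D*, *KIN14P*, *KINUA* and *KINUB* have none in the probe table and were not analysed here. Where a gene has several probe sets the brightest was used, and all 44 reached the mean signal of 20 that was needed for a test, as did 15040 genes in all.

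Microtubules are hollow filaments of paired alpha and beta tubulin. Gamma tubulin starts new filaments, and kinesins are motor proteins that move along them, slide them or take them apart. In dividing plant cells microtubules form the preprophase band, the spindle and the phragmoplast, the structure that builds the new cell wall, and in growing cells the cortical array guides the deposition of cellulose. Genes of several of these motors are transcribed mainly around mitosis, so their RNA is usually plentiful in meristems and in young primordia.

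The study asked which transcripts differ in the stem base when crown roots are not initiated. Both groups were 7-day-old seedlings of cultivar Taichung 65, grown in sterile Petri dishes on diluted Murashige and Skoog medium, under equal hours of light and dark. The groups were wild type (WT) and *crown rootless1* (*crl1*), a mutant without crown roots that lacks a functional transcription factor of the AS2/LOB-domain family, and no treatment was given. Each replicate was a pool of 20 stem bases, and 3 pools per genotype, numbered by experiment 1 to 3, were each hybridised to 1 GeneChip Rice Genome Array. *crl1* stands for 1 mutant line. The sampled zone holds many cell types, so fewer dividing cells and less RNA per cell cannot be told apart.

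The deposited value is the MAS5 signal, a linear intensity per probe set that was scaled on each array to a mean of 100. Tests were run on 25045 of the 57194 probe sets that are not controls, those whose geometric mean signal reached 20. The arrays of experiment 3 stood apart in both genotypes: their highest signals were 5201 and 5761, against 15946 to 18869 on the other 4 arrays, and their median signals were 12.7 and 12.5 against 15.3 to 16.6. The tissue label was checked with marker genes. The summed signal of 5 homeobox genes of the shoot meristem was 1863 to 2720 in WT and 1954 to 2923 in *crl1*. That of 3 genes of green tissue was 4891 to 9376 and 4762 to 9734, that of 7 root genes was 567 to 806 and 442 to 765, and 7 pollen and seed genes summed to only 103 to 123 and 102 to 120.1, with 4 of them below 20 on every array. The largest part of the last sum was *GLUA-2*, at 51.8 to 80.0. The root genes did not move as one. *NAS1* (log2 fold change -1.45), *PIN2* (-0.70) and *SHR1* (-0.14) were lower in *crl1* in each experiment and *WOX11* (0.71) higher, and none of the 6 tested passed in limma.

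Kinesin and tubulin transcripts differed little between *crl1* and WT. No member passed the threshold of a limma adjusted p under 0.05, fitted over all tested probe sets with the experiment as a block. Of these probe sets 0.651% passed (0.447% lower and 0.204% higher in *crl1*), a share too small for 0 of 44 to set the members apart. At an unadjusted p under 0.05 stood 1 member, *TUB7*, against 9.76% of all tested probe sets. The log2 fold changes ran from -0.30 for *KIN14Q* to 0.29 for *KIN14O* (standard errors 0.083 to 0.322). The 95% interval lay within a 2-fold change in either direction for all 44 members (90.4% of tested probe sets) and within 1.5-fold for 38. The members leaned to lower values in *crl1*: 32 of 44 had a negative log2 fold change (72.7% against 49.3%), with a median of -0.07 against 0.00344 over all tested probe sets. Among the kinesins 26 of 33 were negative with a median of -0.12, and among the tubulins 6 of 11 with a median of -0.00341. In no member did the 3 *crl1* arrays lie all below or all above the 3 WT arrays, which held for 3.64% and 3.65% of tested probe sets. None passed a 2-fold ratio in all 3 experiments (0.176% below and 0.0519% above), which at such small shares does not set the members apart either.

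**Figure D1:**
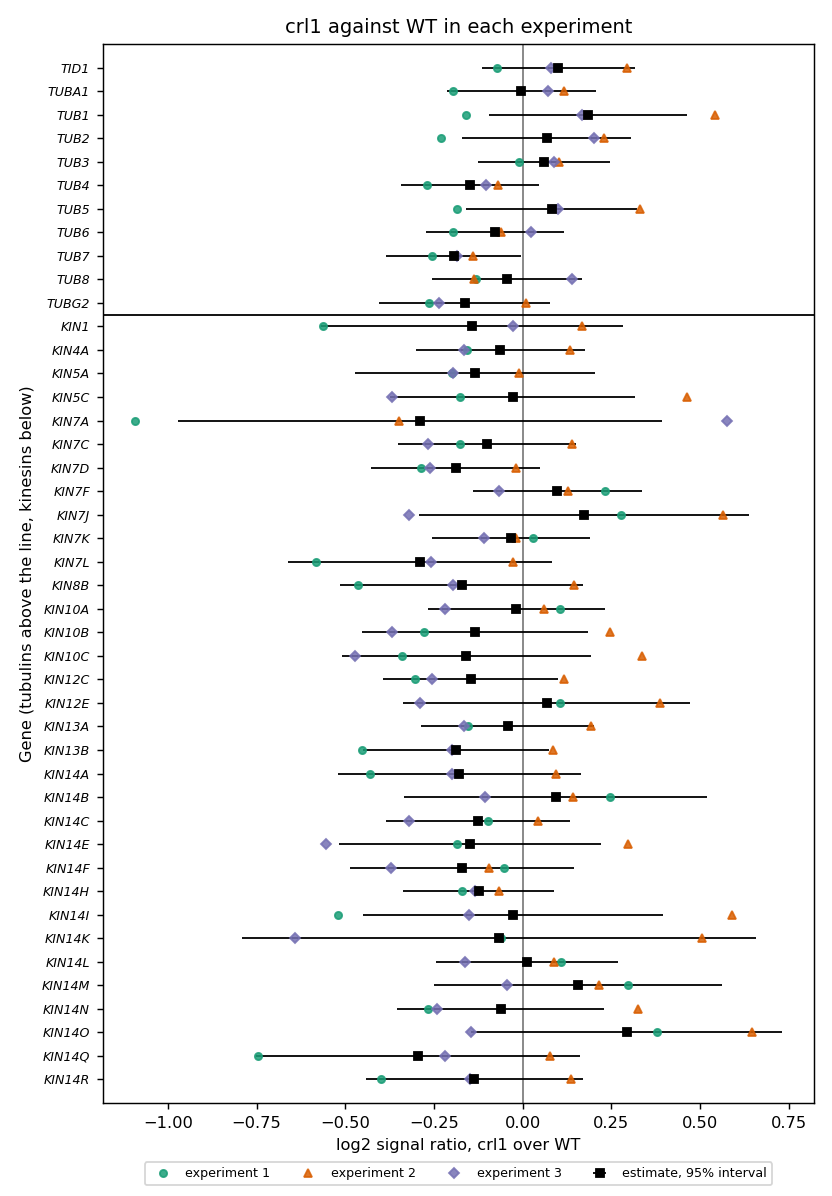
log2 signal ratio of *crl1* over WT for the 44 genes (horizontal axis), with tubulins above the line and kinesins below it. Coloured points are the ratios within experiments 1, 2 and 3, and black squares with lines are limma estimates with 95% intervals. All estimates lie between -0.30 and 0.29, and the points of experiment 2 lie to the right of 0 for 33 of the 44 genes.

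Among the tubulins, *TUB7*, 1 of 8 beta tubulin genes, had the smallest p. In replicates 1 to 3 it had signals of 979.7, 996 and 1402 in WT against 820.0, 905 and 1232 in *crl1*. *crl1* was the lower in each experiment, but the genotypes overlapped because both arrays of experiment 3 were higher than the rest (log2 fold change -0.19 ± 0.085 SE, limma adjusted p = 0.502). *TUB4*, another beta tubulin, was also lower in each experiment, at 1674, 2084 and 1497 in WT against 1388, 1987 and 1393 in *crl1* (log2 fold change -0.15, limma adjusted p = 0.646). These were the only tubulins among the 7 members that were lower in all 3 experiments, a pattern shown by 15.2% of tested probe sets. No member was higher in all 3, as 4003 of the 25045 tested probe sets were.

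The remaining tubulins had no common direction. *TUB1* had the largest positive estimate, with signals of 4538, 3922 and 2259 in WT against 4065, 5709 and 2538 in *crl1* (log2 fold change 0.18 ± 0.12 SE, limma adjusted p = 0.698). Its estimate rests on experiment 2, in which *crl1* was higher by 0.54 on the log2 scale, and without that experiment it was 0.0045. *TID1*, an alpha tubulin known in rice from a mutant with twisted and dwarfed growth, was at 5920.3, 5700.1 and 2808 in WT against 5629, 6993 and 2969 in *crl1* (log2 fold change 0.10, limma adjusted p = 0.805). Gamma tubulin, *TUBG2*, was at 299, 349.6 and 323 in WT against 249, 352 and 274 in *crl1*, lower in experiments 1 and 3 and close to WT in experiment 2 (log2 fold change -0.16 ± 0.11 SE, limma adjusted p = 0.691).

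**Figure D2:**
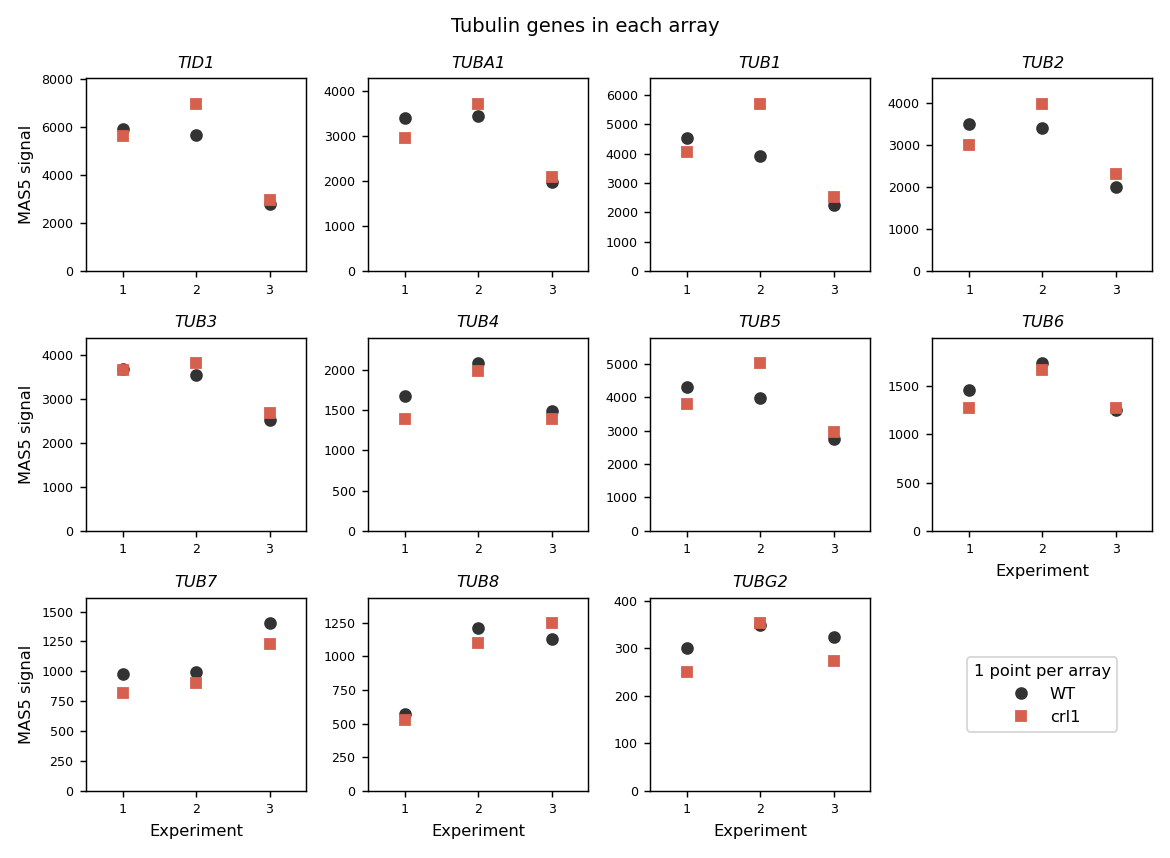
MAS5 signal (linear, vertical axis from 0, scaled per gene) of the 11 tubulin genes in experiments 1, 2 and 3 (horizontal axis), with 1 point per array, black circles for WT and red squares for *crl1*. The spread between experiments exceeds that between genotypes: *TID1* lies at 5629 to 6993 in experiments 1 and 2 and at 2808 and 2969 in experiment 3, while *TUB7* is highest in experiment 3 and *TUB8* lowest in experiment 1.

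The motors of the spindle and of cytokinesis were next. Family 5 kinesins push the spindle poles apart. *KIN5A* was at 110.5, 91.8 and 80.6 in WT against 96.3, 91.2 and 70.3 in *crl1*, lower in each experiment by little (log2 fold change -0.13, limma adjusted p = 0.841), and *KIN5C* had an estimate of -0.03. Family 12 kinesins, known in Arabidopsis from the phragmoplast and the division plane, gave estimates of -0.15 for *KIN12C* (593, 466 and 418 in WT against 481, 505 and 349.9 in *crl1*, limma adjusted p = 0.737) and 0.07 for *KIN12E*. *KIN10A*, whose relative in Arabidopsis sits on the phragmoplast, was at -0.02, and *KIN10C* at -0.16. In all of these the genotypes overlapped.

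Family 7, which includes relatives of the tobacco NACK kinesins of cytokinesis, held the members nearest to the threshold after *TUB7*. *KIN7D* was at 412, 374 and 263 in WT against 337, 369.5 and 219 in *crl1* (log2 fold change -0.19 ± 0.11 SE, limma adjusted p = 0.629). *KIN7L* was at 110.3, 102 and 84.1 in WT against 73.7, 99.8 and 70.3 in *crl1* (log2 fold change -0.29 ± 0.17 SE, limma adjusted p = 0.639). Both were lower in all 3 experiments and almost level in experiment 2. *KIN7A*, which carries the NACK name and is given here after its values were seen, had the widest spread of the family: 84.0, 57.6 and 23.5 in WT against 39.4, 45.2 and 35.1 in *crl1*, lower in experiments 1 and 2 and higher in experiment 3.

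Of the motors tied to growth and shape, *KIN4A*, known in rice from dwarf mutants, had a log2 fold change of -0.06. *KIN13A* and *KIN13B* belong to the family that in animals takes microtubules apart, and *KIN13A* is known in rice from a mutant with small round seeds. *KIN13B* was at 568, 513 and 393 in WT against 415, 545 and 342 in *crl1* (log2 fold change -0.19, limma adjusted p = 0.669). *KIN1*, needed for male meiosis in rice, had an estimate of -0.14 and *KIN8B* of -0.17, and both overlapped between genotypes.

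Family 14, motors that walk to the minus end, is the largest group, with 14 genes, of which 10 had a negative estimate (median -0.10). It held both extremes. *KIN14Q*, a kinesin that also binds actin, was at 89.4, 81.7 and 51.8 in WT against 53.3, 86.2 and 44.6 in *crl1* (log2 fold change -0.30 ± 0.20 SE, limma adjusted p = 0.703). *KIN14O* was at 80.8, 57.3 and 58.6 in WT against 105.1, 89.7 and 53.0 in *crl1* (log2 fold change 0.29 ± 0.19 SE, limma adjusted p = 0.693). Each changed sign between experiments. *KIN14F* and *KIN14H* were lower in all 3 experiments, with estimates of -0.17 and -0.12.

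Within each experiment most members leaned the same way, but not the same way in every experiment. *crl1* was the lower genotype for 35 of 44 members in experiment 1, for 11 in experiment 2 and for 35 in experiment 3, against 49.9, 47.3 and 51.9% of all tested probe sets. The median log2 ratios were -0.18, 0.13 and -0.18, against 0.00088, 0.022 and -0.012. For the kinesins these counts were 24, 7 and 32 of 33, with medians of -0.18, 0.14 and -0.20. For the tubulins they were 11, 4 and 3 of 11, with medians of -0.20, 0.10 and 0.08. A list of genes that shift as one within 1 pair of arrays counts as 1 observation per pair, and 2 of the 3 pairs were low. Without experiment 2 the members' median was -0.20, with 36 negative, 10 at an unadjusted p under 0.05 and 0 at a limma adjusted p under 0.05, where 50.9% of tested probe sets were negative and 11.5% at an unadjusted p under 0.05. Without experiment 1 or 3 it was -0.02 or -0.01.

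Brightness moved with only some of the tubulin part of this pattern. For all 6 members with a mean signal of at least 2000, the alpha tubulins *TID1* and *TUBA1* and the beta tubulins *TUB1*, *TUB2*, *TUB3* and *TUB5*, *crl1* was lower in experiment 1 and higher in experiments 2 and 3. Of all 723 probe sets this bright, *crl1* was lower in 65.8, 35.8 and 22.1% in the 3 experiments. After quantile normalization those shares were 53.8, 49.8 and 50.1%, and *crl1* was lower for 5, 0 and 3 of the 6. For all 11 tubulins the counts were 10, 4 and 7 after quantile normalization, where they had been 11, 4 and 3 before it. The kinesin counts after it were 24, 7 and 31 of 33. The kinesins' signals lay under 1000, where no band of brightness had more than 55.5% of its probe sets lower in *crl1* in any experiment.

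**Figure D3:**
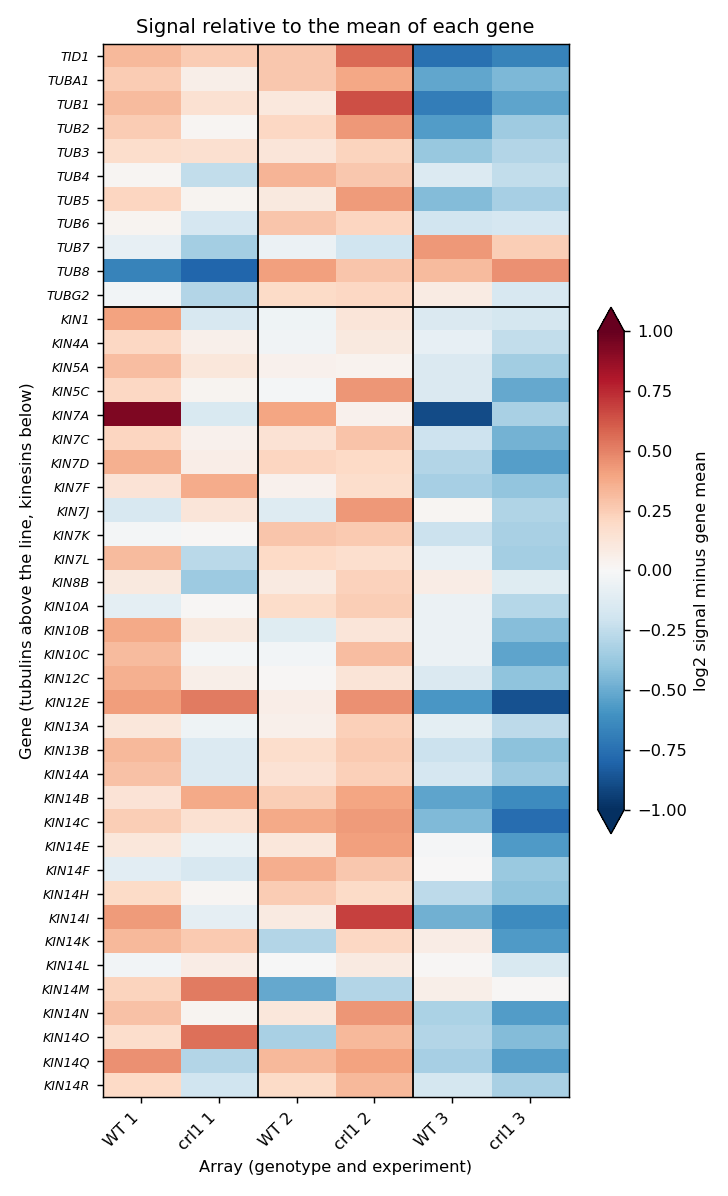
log2 signal of each gene minus its own mean over the 6 arrays (colour, red above and blue below the mean, saturated beyond 1), with genes in rows, tubulins above the line, and arrays in columns by experiment and genotype. The 2 columns of experiment 3 are blue for most genes, 41 of 44 being lower there on average, and *TUB7* and *TUB8* are the exceptions among the tubulins.

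For these genes the experiments differed more than the genotypes did. For 41 of 44 members the difference of experiment 3 from experiments 1 and 2 was larger in size than that of *crl1* from WT, with a median size of 0.45 against 0.13 on the log2 scale (0.28 against 0.13 over all tested probe sets). Each experiment has 1 array per genotype. The p-values of this comparison therefore rest on how far the difference between the genotypes varied from experiment to experiment, not on repeated arrays within an experiment. Sampling, plants and hybridisation may all differ between experiments and cannot be told apart. Experiment 3 was set against the others because it was known to stand apart in these data. In it 41 of 44 members were lower (93.2% against 53.2% of tested probe sets), with a median of -0.42 against -0.03. By limma adjusted p, 19 members were lower and 2 higher (12.6 and 11.7% of tested probe sets), and 23 did not pass. In 26 members both arrays of experiment 3 lay below the other 4 arrays and in 1 above them, *TUB7* (22.9 and 19.2%). The difference was negative in both genotypes for 38 members, with medians of -0.34 in WT and -0.50 in *crl1*. Centring each array on its median moved the median of all tested probe sets to 0.30 and that of the members to -0.09, with 5 lower and 2 higher by the test (4.04 and 34.3% of tested probe sets). A fit without the trend of variance with signal called 7 lower and 0 higher (6.48 and 6.05%). An F-test over the 3 experiments called 20 members (21.4% of tested probe sets). Between experiments 2 and 1 only *TUB8* was called, higher in 2 (0.551% higher and 0.323% lower).

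Of the kinesins, 32 of 33 were lower in experiment 3 and 12 passed the test, all lower (median -0.41). The largest difference was that of *KIN12E*, at 106, 83.6 and 53.1 in WT against 114, 109 and 43.5 in *crl1*, a log2 difference of -1.09 (standard error 0.19, limma adjusted p = 0.00332). *KIN14C* was next among those that passed, with signals from 271 to 327 on the 4 arrays of experiments 1 and 2 and of 180.0 and 144 in experiment 3 (log2 difference -0.90, limma adjusted p = 0.000913). In both genes the arrays of experiment 3 lay below all others. *KIN14B* (-0.87, limma adjusted p = 0.0131), *KIN14I* (-0.83, 0.0153), *KIN14N* (-0.66, 0.00802), *KIN7F* (-0.55, 0.00748) and *KIN7K* (-0.40, 0.0223) passed as well. *KIN7D* (-0.63, limma adjusted p = 0.00362), *KIN14H* (-0.50, 0.00692), *KIN7C* (-0.51, 0.0125), *KIN13B* (-0.47, 0.0231) and *KIN12C* (-0.41, 0.0306) passed too. *KIN12C* did not pass without experiment 1 (limma adjusted p = 0.0869, with 0.0101 to 0.631 over all alternatives tried). Over the alternatives the limma adjusted p reached 0.436 for *KIN13B*, 0.255 for *KIN14H*, 0.253 for *KIN7C* and 0.0639 for *KIN7D*. With each array centred on its median, *KIN12E* and *KIN14C* were the only kinesins still called lower (4.04% of tested probe sets). *KIN14M* was the single kinesin with a positive difference, 0.05 (limma adjusted p = 0.875).

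The 6 brightest tubulins were lower in experiment 3 as well. *TID1* went from 5629 to 6993 on the 4 arrays of experiments 1 and 2 to 2808 and 2969 in experiment 3, a log2 difference of -1.06 (standard error 0.10, limma adjusted p = 0.000144). *TUB1* (-0.91, limma adjusted p = 0.00122), *TUBA1* (-0.73, 0.000867), *TUB2* (-0.68, 0.00251), *TUB5* (-0.57, 0.00608) and *TUB3* (-0.50, 0.00342) passed too, with both arrays of experiment 3 below the others in each. Of the dimmer tubulins *TUB4* passed with overlapping arrays (-0.29, limma adjusted p = 0.0484) but not without experiment 2 (-0.08, 0.591, with 0.00192 to 0.751 over the alternatives), and *TUBG2* was at -0.06 (0.745).

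A pair of beta tubulins went the other way. *TUB7* was at 820.0 to 996 in experiments 1 and 2 and at 1402 and 1232 in experiment 3 (log2 difference 0.51, standard error 0.090, limma adjusted p = 0.0035). Its second probe set, of a type that can match several genes, gave 0.50 (limma adjusted p = 0.00539). *TUB8* had signals of 574, 1212 and 1132 in WT against 524, 1102 and 1247 in *crl1*, a difference of 0.58 (limma adjusted p = 0.00318). Its arrays show a low experiment 1 rather than a high experiment 3: experiment 2 exceeded experiment 1 by 1.07 on the log2 scale (limma adjusted p = 0.00513), and without experiment 1 the difference of experiment 3 from experiment 2 was 0.04 (limma adjusted p = 0.834, with 0.000303 to 0.834 over all alternatives tried).

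The level of a probe set on the whole array moved with part of this. Of all 723 probe sets with a mean signal of at least 2000, 97.0% were lower in experiment 3, with a median of -0.61, and 81.6% were called lower. The 6 tubulins of that brightness had a median of -0.71. After quantile normalization, which gives every array the same distribution, the 723 had a median of -0.08 with 58.9% negative and 24.5% called lower. The 6 tubulins then had a median of -0.25 with 4 negative. *TUBA1* at -0.32 (limma adjusted p = 0.0211, with 1.13e-05 to 0.0342 over all alternatives tried) and *TID1* at -0.27 (0.0406, with 3.7e-07 to 0.0406) were still called lower, while *TUB1* and *TUB2* were not and *TUB3* and *TUB5* had positive values of 0.11 and 0.17. From 1000 to 2000, where *TUB4*, *TUB6* and *TUB7* lie, the median was -0.15, with 29.7% called lower and 9.06% higher. The medians of dimmer probe sets were nearer 0, at -0.07 from 20 to 50, 0.0061 from 50 to 200 and 0.004 from 200 to 1000. In those bands 4.26, 9.15 and 14.6% were called lower and 4.35, 12.6 and 17.7% higher. The 35 members under 1000 had a median of -0.40 with 33 negative, 12 called lower and 1 higher. After quantile normalization the kinesins had a median of -0.47 with 13 called lower, and *TUB7* and *TUB8* remained called higher.

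**Figure D4:**
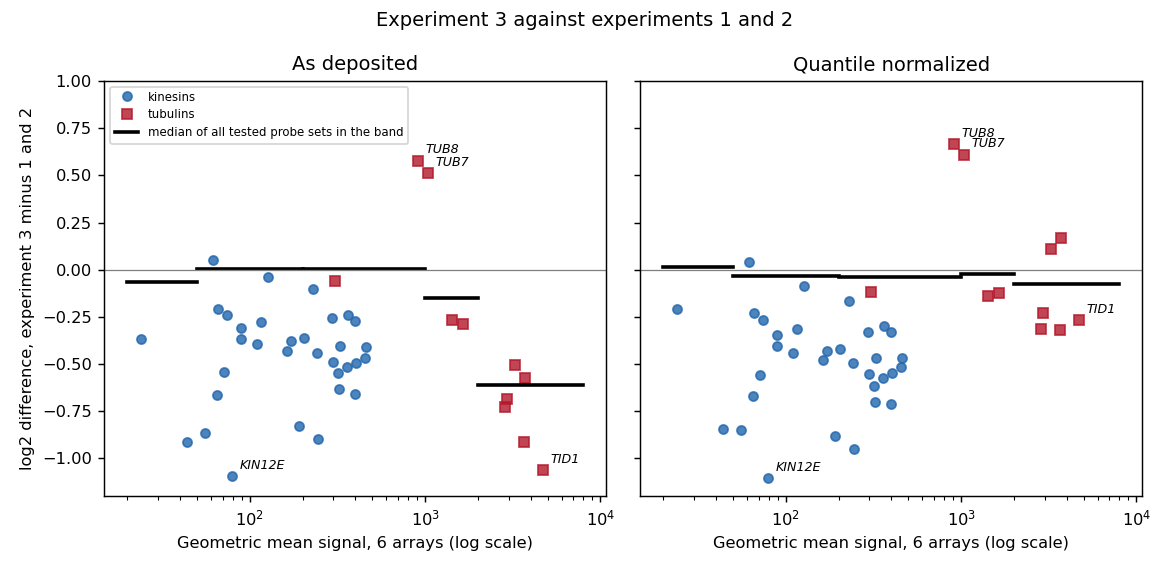
log2 difference of experiment 3 from experiments 1 and 2 (vertical axis) against the geometric mean signal over 6 arrays (log axis), as deposited on the left and after quantile normalization on the right, with blue circles for kinesins, red squares for tubulins and black bars for the median of all tested probe sets in each band of signal. As deposited, the 6 brightest tubulins lie from -1.06 to -0.50, around the bar of their band at -0.61, and after quantile normalization they lie from -0.32 to 0.17. The kinesins lie below their bars in both panels, apart from *KIN14M*.

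Some tissue markers moved with experiment 3 too, in both directions. The summed signal of the shoot meristem genes was 1863 to 1954 in experiment 3 against 2147 to 2923 in experiments 1 and 2, and of the 4 that were tested *OSH1* (log2 difference -0.53, limma adjusted p = 0.00335) and *HOS59* (-0.67, 0.00425) were lower. The sum of the green tissue genes, 4762 to 4891 against 8381 to 9734, is nearly that of *CAB2R*, a light-harvesting protein gene (-1.11, limma adjusted p = 9.92e-05), which has a signal over 2000 and was at 0.10 after quantile normalization. *RBCS*, for the small subunit of Rubisco, was higher in experiment 3 instead (0.77, limma adjusted p = 0.00115). The sum of the root genes, 765 to 806 against 442 to 611, rests on *NAS1*, a nicotianamine synthase gene (2.11, limma adjusted p = 0.00212). Without *NAS1* it was 404 to 428 against 369.6 to 457, and the other 5 root genes tested did not pass. The pollen and seed genes stood at 107.3 to 112 against 102 to 123. The part of these differences in the lower kinesin signals was not tested.

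Probe sets of near-identical tubulins can pick up transcripts of a neighbour, so the members with several probe sets were read one by one. The 3 probe sets of *TID1* gave -1.01 to -1.06 for experiment 3. All 3 are of types that can match several genes, so their agreement does not show that the signal is that of *TID1* alone. *TID1* has no value where such probe sets are left out. Nor have *KIN1*, *KIN8B*, *KIN13B* and *KIN14K*, whose only tested probe sets are of these types. *TUB3* was less uniform. Its brightest probe set, of a type that can match several genes, gave -0.50, and its 2 other tested probe sets, with mean signals of 202 and 30.2, gave 0.06 and 0.14. *TUB4* and *KIN13A* had probe sets of opposite sign for *crl1* against WT, at -0.15 and 0.11 for *TUB4* and at -0.04 and 0.15 for *KIN13A*.

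Partners of the members were read from the same fit. Of all tested probe sets 0.651% passed for *crl1* against WT, 9.76% were at an unadjusted limma p under 0.05 and 49.3% were negative. For experiment 3 the shares were 12.6% lower and 11.7% higher by the test. The 5 genes read for microtubule-associated proteins were *MAP70.1*, *MAP70.2*, *MAP70.3*, *MAP70.4* and *MOR1*. They do not include the gene of this kind that the study reported as lower in *crl1*. None of the 5 passed for *crl1* against WT (1 at an unadjusted p under 0.05 in limma). The lowest was *MAP70.4*, at 103, 66.8 and 45.6 in WT against 57.5, 55.5 and 32.1 in *crl1*, lower in each experiment (log2 fold change -0.54 ± 0.20 SE, limma adjusted p = 0.406). In experiment 3, 3 of the 5 were lower by the test, *MAP70.4* (-0.84, limma adjusted p = 0.018), *MOR1*, which promotes microtubule growth (-0.75, 0.00127), and *MAP70.1* (-0.31, 0.0468). Of 14 genes of the mitotic cycle, 10 had a negative estimate for *crl1* against WT (median -0.18). Only *CKS1*, a cyclin-dependent kinase subunit, passed, lower in *crl1* (log2 fold change -0.88 ± 0.089 SE, limma adjusted p = 0.00475). At an unadjusted p under 0.05 in limma stood 3 of the 14. In 4 of them all *crl1* arrays lay below all WT arrays and in 0 above (3.64 and 3.65% of tested probe sets). *CenH3*, the histone of centromeres, was at -0.42 (limma adjusted p = 0.15). In experiment 3, 3 of these 14 were lower by the test and 0 higher. Actin forms the other filament system of these cells. Of 30 genes for actin and its partners 20 had a positive estimate (median 0.03), 0 passed and 0 were at an unadjusted p under 0.05 in limma, with *FH10*, a formin, at -0.68 (limma adjusted p = 0.528) as the largest. In experiment 3, 6 of the 30 were lower and 2 higher by the test.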

How the data were processed

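RNA of pooled stem bases, 200 ng per pool, was amplified, labelled and hybridised to 6 GeneChip Rice Genome Arrays. The deposited files give 1 intensity for each probe set, the MAS5 signal, which the authors computed in Affymetrix Expression Console and scaled to a target of 100. A trimmed mean of 100.0, with 2% left out at each end, was found on each array. Program versions were not given in the sources that were read. Of 57381 probe sets, 187 controls were left out. The annotation behind the probe table may be outdated. It pairs 22436 probe sets with 1 gene, 95 with several and 34663 with none, and gene names came from a reference annotation of rice.

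The log2 of the signal, with nothing added, was fitted with genotype and experiment as terms in limma (version 3.58.1, under R version 4.3.3, files read with data.table, version 1.17.8), with the variance moderated along a trend with the mean (7.33 prior and 2 residual degrees of freedom). Benjamini-Hochberg adjustment covered all 25045 probe sets in the fit, and 0.05 was the threshold. The study paired the genotypes within each replicate, and the numbers pair the arrays in the values: taken as deviations from the mean of its genotype, a WT array correlated with the *crl1* array of its own number at 0.39, 0.451 and 0.747, and with the others at 0.232 at most. Replicates were separate pools of plants. In a simulation of this design over 25045 probe sets, limma called 59 of 100 that were set to change by log2 1, 94 of 100 set to change by log2 2 and 10 that were unchanged, and 94.9% of the intervals of unchanged probe sets held 0. The simulation drew its variances from the fitted trend. The number of arrays limits the precision.

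The members, the lists, the comparison of experiment 3 and the rule for named genes were chosen with earlier results of these data known. *KIN17*, which the name pattern also takes, is a nucleic acid binding protein and not a kinesin and was left out, and *TID1* was matched by its synonym TubA. Histidine kinases and arsenate reductases that share synonyms with listed genes were left out of the marker and cycle lists after their names and before their values were seen. Members were named by rank: the 10 with the smallest p for genotype, the 8 for experiment 3, the brightest and the most changed of each group, gamma tubulin, and those whose probe sets disagree in sign. A few others are named where a count or a statement turns on them. A planned search for promoter motifs and a comparison of protein sequences were not run. The alternatives were a fit without the replicate block or without the genotype, no minimum or one of 50 for the signal, quantile normalization, 16 added before log2, median centring, a fit without the trend, leaving out each experiment, leaving out probe sets that may match several genes, averaging the probe sets of a gene, and the ratio in all 9 pairs of arrays. Using 1 probe set per gene, adding *KIN17* and the F-test and pairwise comparisons of experiments were added after the data were seen. The plots were made in Python (3.11.15) with the packages matplotlib (3.10.9), numpy (2.4.6) and pandas (2.3.3).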

Additional observations from a re-analysis of the deposited data

How the results depend on the processing

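For *crl1* against WT, every alternative left 0 members called and a negative median, and without the replicate block, which the paired arrays call for, 32 members were negative with a median of -0.07, as with it. Over all 25045 tested probe sets the fit without the block called only 5 and that without the trend 0. The 0 members called in those fits were thus all but fixed in advance. Leaving out 1 experiment gave 24 to 36 negative members and medians of -0.20 to -0.01. For experiment 3, leaving out experiment 1 or 2 gave 21 to 22 members lower, 1 to 2 higher and medians of -0.50 to -0.44. Of tested probe sets, 12.5 and 12.3% were lower by the test in those fits, and 12.8 and 11.4% higher. Leaving out experiment 3 leaves no such comparison. Median centring moved the median of all tested probe sets to 0.30, and with it 5 members were lower (4.04% of tested probe sets) and the members' median was -0.087. Without the trend 7 were lower and 0 higher, against 6.48 and 6.05% of tested probe sets (*TUB7* limma adjusted p = 0.0527 and *TUB8* 0.0509, where the alternatives spanned 0.000309 to 0.0527 and 0.000303 to 0.834). With *KIN17* added 33 of 45 members were negative. Signs changed as follows, and the cause was not tested. For experiment 3, quantile normalization gave *TUB3* 0.11 and *TUB5* 0.17, median centring gave *KIN1* 0.093, *KIN10A* 0.077, *KIN13A* 0.061, *KIN4A* 0.094, *KIN7L* 0.024, *KIN8B* 0.29, *TUB4* 0.048 and *TUBG2* 0.28, leaving out an experiment gave -0.19 to 0.11 for *KIN8B* and -0.24 to 0.12 for *TUBG2*, leaving out probe sets that may match several genes gave *TUB3* 0.060, and the mean over probe sets gave *TUB1* 0.056. For *crl1* against WT, leaving out an experiment gave -0.30 to 0.069 for *KIN1*, -0.080 to 0.084 for *KIN10A*, -0.093 to 0.25 for *KIN12E*, -0.16 to 0.019 for *KIN13A*, -0.27 to 0.14 for *KIN5C*, -0.063 to 0.093 for *TUBA1*, -0.014 to 0.22 for *TUB2*, -0.043 to 0.21 for *TUB5* and -0.13 to 0.0036 for *TUB8*. The mean over probe sets gave *KIN13A* 0.056, *TUB4* 0.10 and *TUB1* -0.66, whose second probe set has a mean signal of 1.35. Of 692 values of named genes, 621 kept direction and side of the threshold, and 42 kept only their direction.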
